A study of Mus musculus with 4 samples.

Results

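The genes described here encode the proteasome, the enzymes that load ubiquitin and its relatives onto proteins, the p97 segregase with its cofactors, and the COP9 signalosome. They were chosen by gene symbol, as rows matching Psma to Psmg, Pomp, Ube2, Uba, Ubl, Ubqln, Ubxn, Vcp, Ufd1, Nploc4, Cops, Nedd8, Sumo, Sae1 and Senp. The rule was set with earlier results of these data known, so counts of members beside those of all genes are description only. The rule gave 84 of the 4878 genes in the table, and 78 of them had a mean normalised count of at least 5 and were tested. Mouse embryonic fibroblasts at passages 5 to 8, which are cells grown out of embryos, were transfected either with siRNA called Si-eIF1A (X+18) (2 knockdown libraries) or with a negative control siRNA (2 control libraries), all with Lipofectamine RNAimax. eIF1A is a translation initiation factor, and the comparison asks how mRNA levels differ when it is depleted. The sources used here give neither the mouse strain nor the time after transfection. They also do not say that replicate libraries are separate cultures, so p-values measure the spread between these libraries, which may be technical.

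Proteins marked for destruction carry chains of ubiquitin, which an E1 enzyme activates, an E2 enzyme carries and an E3 ligase attaches. The proteasome then unfolds them with the ATPases of its 19S cap and cuts them in the barrel of its 20S core. NEDD8 and SUMO are ubiquitin-like proteins with E1 and E2 enzymes of their own, and the COP9 signalosome removes NEDD8 from cullin ligases. Dividing cells such as fibroblasts use this system to remove cyclins, misfolded chains and unassembled subunits.

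Depth was similar across libraries: knockdown libraries 1 and 2 held 2152331 and 2352111 recovered reads and control libraries 1 and 2 held 2182825 and 2595625. The deposited normalised counts, which were tested, had lower totals in knockdowns (1737438 and 1597709) than in controls (2148302 and 2106582). Eif1a and Eif1ax were not analysed here, so the depletion of eIF1A was not checked. Of 12 fibroblast markers Vim, Fn1 and S100a4 were present. Of these 3 genes 2 were called lower in knockdowns, against 21.6% of all genes tested. The normalised counts of the 3 summed to 9879 and 12562 in knockdowns and 23010 and 17548 in controls. The other 9 fibroblast markers, and all 21 markers of epithelial, endothelial, blood and muscle cells, were not analysed here. In bulk RNA a lower share of cells that make a transcript and less of it per cell cannot be told apart.

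Ubiquitin-system genes were more often higher than lower in knockdown cells. Of the 78 tested members 18 rose (23.1%, against 15.9% of all 4605 genes tested) and 5 fell (6.41%, against 21.6% of all genes), by limma with Benjamini-Hochberg adjustment over all genes and an adjusted p under 0.05. The rises of 3 E2 genes (Ube2e1, Ube2d2a and Ube2d3), Psme3, Nedd8 and Senp3 held in all 15 other settings in which single genes were scored. None of the 5 falls did. The median of all genes moved up under TMM scaling (0.053), equal totals (0.34), quantile normalisation (0.042), edgeR (0.052) and DESeq2 (0.031). Such a shift makes falls harder to keep than rises. The share of all called genes that kept their call was not computed. The median log2 difference was 0.29 over the tested members and −0.0091 over all genes, on the log2(normalised count + 1) scale, on which all log2 differences and folds below are given. Both knockdown libraries lay above both controls for 38 members (48.7%, against 32.4% of all genes) and below both for 12 (15.4%, against 35.5%).

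The split of calls depends on how the libraries are scaled. With each library set to the same total the median of all genes moved to 0.34 and that of the members to 0.64, and 36 members were called higher and 0 lower (0 also at an unadjusted p under 0.05), beside 1299 and 603 of all genes. Quantile normalisation gave 27 members higher and 1 lower, beside 805 and 807 of all genes. The members' median exceeded that of all genes by 0.30 with the deposited values, with TMM scaling and at equal totals alike, and by 0.42 under quantile normalisation. It exceeded it by 0.19 without control 1, by 0.47 without control 2, by 0.24 without knockdown 1 and by 0.42 without knockdown 2.

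**Figure D1:**
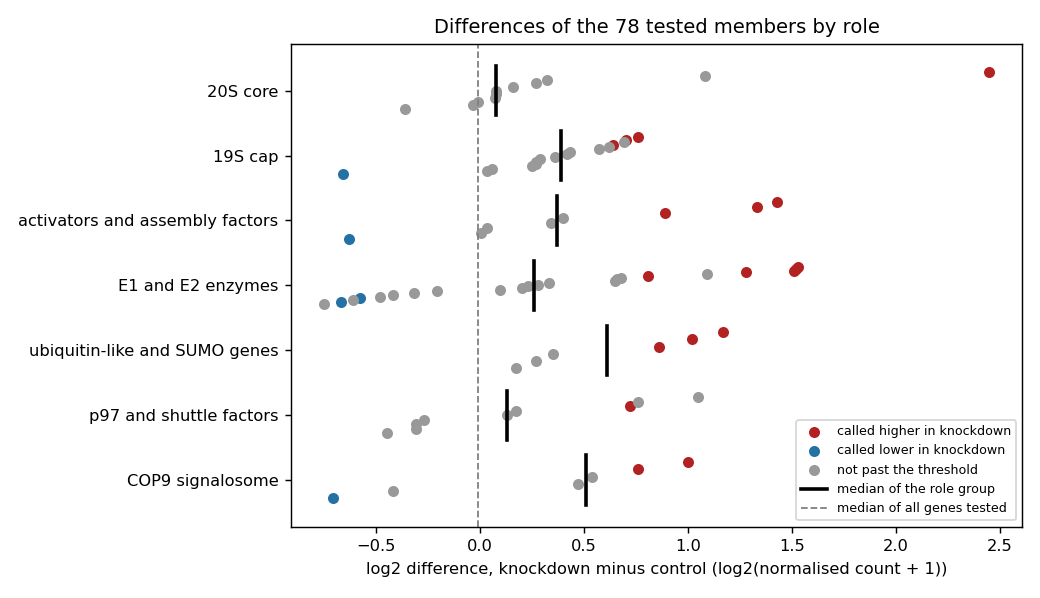
Log2 differences (knockdown minus control) of the 78 tested members, grouped by role, with a point per gene coloured by its call, a black bar at each group's median and a dashed line at the median of all genes. Medians run from 0.077 for the 20S core to 0.61 for the ubiquitin-like and SUMO genes, and only the ubiquitin-like and SUMO genes have no member below 0.

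**Figure D2:**
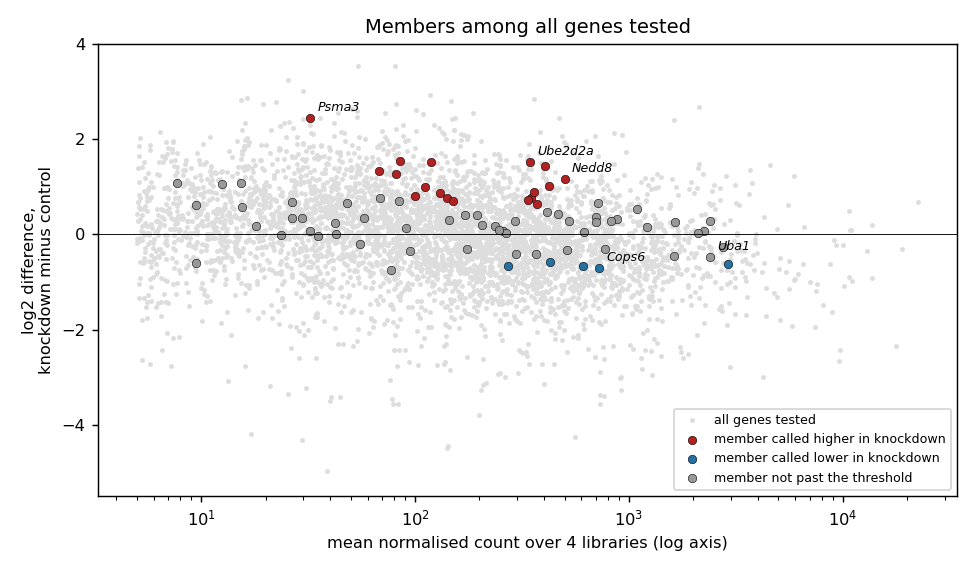
Log2 difference (knockdown minus control) of all 4605 tested genes in grey and of the 78 tested members in colour, against the mean normalised count over the 4 libraries on a log axis. The members lie between −0.75 and 2.45, inside the range of all genes, which runs from −5.04 to 3.54.

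Promoter sequences were looked up to see what the genes that changed have in common in their DNA. RefSeq promoters (build GRCm38.p6) were found for 69 of the 84 members. Shown are the 200 bases before the start site of the members called higher in all settings and of Cops6 and Psmd2, which fell. Ube2d2a is named only. Where a gene has several start sites the most upstream is given. Sequences run 5′ to 3′ on the gene's strand, and capitals mark CCAAT boxes (CCAAT or ATTGG) and E-boxes (CACGTG).
Ube2e1, chr14:18331845-18332044, minus strand: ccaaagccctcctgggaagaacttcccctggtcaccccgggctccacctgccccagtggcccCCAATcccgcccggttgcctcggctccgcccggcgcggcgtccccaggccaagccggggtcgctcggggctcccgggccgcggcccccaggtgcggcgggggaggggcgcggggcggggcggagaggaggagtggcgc
Ube2d3, chr3:135438032-135438231, plus strand: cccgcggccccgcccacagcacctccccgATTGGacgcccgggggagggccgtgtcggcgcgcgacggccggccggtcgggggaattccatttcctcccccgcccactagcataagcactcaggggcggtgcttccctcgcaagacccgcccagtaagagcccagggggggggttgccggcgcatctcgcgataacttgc
Psme3, chr11:101316013-101316212, plus strand: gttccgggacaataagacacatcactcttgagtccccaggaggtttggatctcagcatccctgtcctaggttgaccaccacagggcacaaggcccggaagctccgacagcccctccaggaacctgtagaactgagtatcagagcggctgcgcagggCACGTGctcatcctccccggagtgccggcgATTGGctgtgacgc
Nedd8, chr14:55671881-55672080, minus strand: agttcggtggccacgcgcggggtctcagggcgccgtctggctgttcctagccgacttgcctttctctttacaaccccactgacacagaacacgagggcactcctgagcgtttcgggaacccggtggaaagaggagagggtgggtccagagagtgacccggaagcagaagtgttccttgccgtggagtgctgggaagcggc
Senp3, chr11:69682085-69682284, minus strand: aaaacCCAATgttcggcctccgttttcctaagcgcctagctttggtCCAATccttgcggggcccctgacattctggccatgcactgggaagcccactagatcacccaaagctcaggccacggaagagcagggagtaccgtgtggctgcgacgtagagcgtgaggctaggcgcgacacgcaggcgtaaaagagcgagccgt
Cops6, chr5:138160902-138161101, plus strand: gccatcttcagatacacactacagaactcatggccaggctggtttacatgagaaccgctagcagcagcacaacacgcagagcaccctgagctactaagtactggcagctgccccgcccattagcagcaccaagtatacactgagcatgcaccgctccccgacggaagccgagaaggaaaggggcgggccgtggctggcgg
Psmd2, chr16:20651452-20651651, plus strand: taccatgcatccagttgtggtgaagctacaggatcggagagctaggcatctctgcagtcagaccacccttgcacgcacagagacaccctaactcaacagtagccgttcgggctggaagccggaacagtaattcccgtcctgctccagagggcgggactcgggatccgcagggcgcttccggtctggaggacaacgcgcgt

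The number of CG pairs in these stretches was 22 in Ube2e1, 23 in Ube2d3, 10 in Psme3, 14 in Nedd8, 15 in Senp3, 10 in Cops6 and 14 in Psmd2. The median was 15 over the members with an entry, 13 over those that rose and 12 over those that fell. It was 15 over the genes of the deposited table and 5 over all genes with a promoter listed. Motifs were sought in 300-base promoters (250 bases before to 50 after the start site, both strands). A gene counted if any of its listed promoters matched. A CCAAT box was present in 5 of 15 members that rose, 1 of 4 that fell and 16 of all 69 (23.2%). It was present in 44.2% of the 4004 genes of the deposited table with a promoter. Of all 27025 genes with a promoter listed, 41.1% had it. In the 20S core it was present in 5 of 9 genes (Psma1, Psma2, Psma3, Psma6 and Psma7), and in the 19S cap in 1 of 13 (Psmc2). The antioxidant response element core is TGACNNNGC, which NRF1 and NRF2 bind in known proteasome promoters. It was present in 10 of 69 members (14.5%), 17.1% of the deposited genes and 14% of all genes with a promoter listed. Among the called members with a promoter entry it was found in 0 of 15 that rose and 0 of 4 that fell. The E-box was found in 10 members, among them Psme3. That share of 14.5% is close to the 13.5% of the deposited genes (8.09% of all genes with a promoter listed). TGATGNAA, the core of the site bound by ATF4 with C/EBP proteins, was found in 1 member, Psmd13 (1.45%). Its share was 2.72% of the deposited genes and 4.51% of all genes with a promoter listed. The last pair of motifs was added after expression values were known. These are matches of letters, not sites shown to be bound.

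Transcripts of the 20S core gave 1 rise (9.09%, against 15.9% of all genes) and no fall (against 21.6%) among 11 tested genes. Their median was 0.077. No core gene was lower at an unadjusted p under 0.05 in limma, edgeR or DESeq2. The called gene was Psma3, an alpha subunit of the outer ring, at 55.7 and 37.4 normalised counts in knockdowns and 0.984 and 35.7 in controls. The value of 0.984 is 1 read in control 1, and the other 3 libraries lie close together. Its log2 difference of 2.45 (SE 0.82, adjusted p = 0.0249) became 0.35 without control 1 (adjusted p = 0.576) and 4.55 without control 2, and edgeR and DESeq2 on the recovered reads gave adjusted p = 0.122 and 0.608. Summed over libraries and scaled for depth, its reads were 2.29 times higher in knockdowns (95% Clopper-Pearson interval 1.61 to 3.29, counting error only).

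The other 10 core genes did not pass. Psma4, a further alpha subunit, had 25.8 and 16.3 normalised counts in knockdowns and 6.89 and 12.2 in controls, which do not overlap (log2 difference 1.08, 95% interval −0.041 to 2.20). Psma7 had 1291 and 629 in knockdowns and 446 and 1171 in controls, so each group held a high and a low library. The beta subunits Psmb1, Psmb2 and Psmb4, which have no cutting activity of their own, had log2 differences of 0.16, 0.071 and 0.076. Psmb4, the core gene of highest mean, had 2917 and 1750 in knockdowns and 1806 and 2544 in controls. Psmb10, a catalytic subunit of the immunoproteasome that interferon induces, had 1148 and 678 in knockdowns and 773 and 688 in controls (log2 difference 0.27, 95% interval −0.23 to 0.78). Psmb8 and Psmb9, the other immunoproteasome subunits, were not analysed here. Psma1, Psma2, Psma5 and Psma6 lay between −0.36 and 0.077.

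Core genes varied together from library to library within the groups. All 11 were higher in knockdown 1 than in knockdown 2 (median log2 difference 0.64), and 8 were higher in control 2 than in control 1 (median 0.51). Both held for 8 of 11 core genes, 9 of 16 cap genes (56.2%) and 22.9% of all genes. The core median was −0.15 without control 1 and −0.11 without knockdown 1, against 0.33 without control 2 and 0.38 without knockdown 2, so its sign depends on the libraries kept. What sets these libraries apart was not tested.

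**Figure D3:**
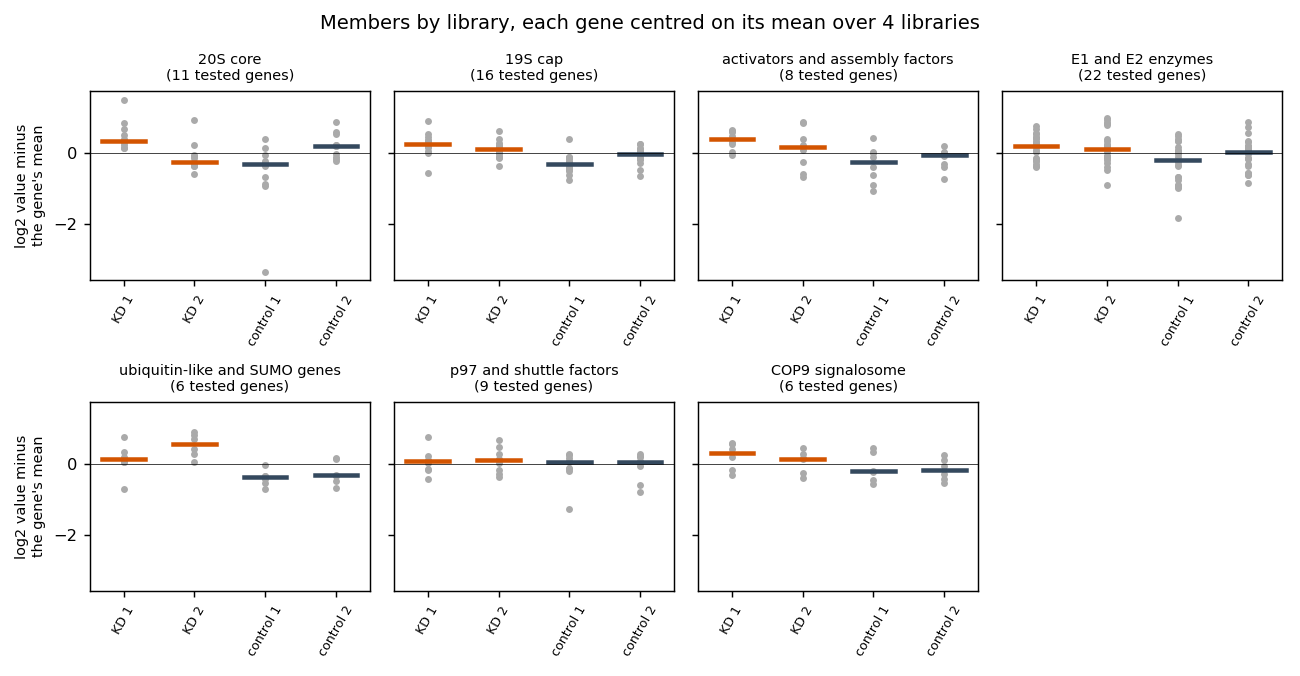
Log2 normalised count of each tested member minus that gene's mean over the 4 libraries, for the 2 knockdown (KD) and 2 control libraries, by role, with a grey point per gene and a thick line at each library's median. In the 20S core knockdown 1 (0.33) and control 2 (0.21) are high and knockdown 2 (−0.24) and control 1 (−0.29) low, whereas the ubiquitin-like and SUMO genes have both knockdowns (0.13 and 0.55) above both controls (−0.38 and −0.32).

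The 19S cap recognises and unfolds substrates and feeds them into the core. Its genes were taken by symbol (Psmc and Psmd), so an assembly chaperone, Psmd5, is among them. Chaperones of the core were grouped with the activators instead. Among the 16 tested genes of the cap group 3 rose (18.8%, against 15.9% of all genes) and 1 fell (6.25%, against 21.6%). The difference was positive in 15 of 16 cap genes (2277 of all 4605), and the cap median was 0.39. The median stayed positive without each library in turn (0.24 to 0.54). Psmd1, the larger scaffold subunit known as Rpn2, had 429 and 444 normalised counts in knockdowns and 306 and 216 in controls (1.69-fold higher, SE 0.23 on the log2 scale, adjusted p = 0.0143). Psmd2, the other scaffold, known as Rpn1, went the other way, with 404 and 551 in knockdowns and 783 and 707 in controls (1.58-fold lower, adjusted p = 0.0254). Neither pair of groups overlaps. The Psmd2 fall did not pass at equal totals (log2 difference −0.31, limma adjusted p = 0.277) or under quantile normalisation (0.257). The ends of Psmd1 and Psmd2 each match another annotated gene (Gm21972 and Gm5422) at 95% identity or more, so reads may be shared.

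Psmc5, an ATPase of the unfolding ring, had 464 and 440 in knockdowns and 257 and 325 in controls (1.56-fold higher, adjusted p = 0.0291). Psmd6, a lid subunit, had 211 and 163 in knockdowns and 107 and 120 in controls (1.63-fold higher, adjusted p = 0.0362). These calls rest on few libraries: without control 1, knockdown 1 or knockdown 2 the adjusted p of Psmc5 was 0.154, 0.141 and 0.0978 and that of Psmd6 was 0.0932, 0.307 and 0.0553. Psmd1 lost its call without control 2 (0.112) and knockdown 2 (0.0745), and Psmd2 without control 1 (0.0689) and knockdown 1 (0.284).

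Both knockdown libraries lay above both controls for 10 of 16 cap genes (62.5%, against 32.4% of all genes). They lay below both for 1 (6.25%, against 35.5%). Of the 10 higher genes 7 did not pass. Among them Psmd11, a lid subunit, had 113 and 95.8 in knockdowns and 69.9 and 58.4 in controls (log2 difference 0.69, 95% interval 0.096 to 1.29, adjusted p = 0.0634). Psmd7, the lid partner of the deubiquitinase subunit, had 546 and 517 in knockdowns and 347 and 446 in controls (0.43, −0.027 to 0.89). Psmd5, an assembly chaperone of the ATPase base, had 227 and 216 in knockdowns and 143 and 192 in controls. Psmc3, the ATPase of highest mean, had 2357 and 1916 in knockdowns and 1930 and 2240 in controls, which overlap (log2 difference 0.031, 95% interval −0.43 to 0.49). Psmc2, Psmc4, Psmd3 and Psmd8 lay between 0.25 and 0.36 with no overlap, and Psmc6, Psmd9, Psmd12 and Psmd13 overlapped.

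Proteasome activators differed in direction. Psme3 encodes PA28 gamma, a nuclear activator that opens the core without ATP, and lies on chromosome 11 (mm10, 101316213 to 101323537, plus strand). It had 538 and 635 normalised counts in knockdowns and 171 and 272 in controls, 2.70-fold higher (log2 difference 1.43, SE 0.24, adjusted p = 0.000146). Psme1 encodes PA28 alpha, part of the interferon-induced activator, and had 2877 and 1761 in knockdowns and 3794 and 3208 in controls (1.55-fold lower, adjusted p = 0.0496). Its partner Psme2, PA28 beta, had 392 and 168 normalised counts in knockdowns and 262 and 241 in controls, with the knockdowns on either side of the controls (log2 difference 0.031, 95% interval −0.59 to 0.66). The Psme2 difference was −0.58 without knockdown 1 and 0.64 without knockdown 2. Psme1 lost its call under 10 of the 15 settings, among them without control 1 (adjusted p = 0.183) and without knockdown 2 (0.542). Exons of Emc9 overlap its end on the opposite strand and Gm7776 is a near copy, and Psme2 has the near copy Psme2b.

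Psmf1, which encodes the proteasome-binding protein PI31, had 84.8 and 111 in knockdowns and 39.4 and 36.5 in controls (2.52-fold higher, adjusted p = 0.00236). Of the chaperones that build the core, Psmg3 had 530 and 398 in knockdowns and 180 and 338 in controls (1.86-fold higher, adjusted p = 0.0134). Both have higher knockdown libraries throughout. Psmg1 had 209 and 179 in knockdowns and 157 and 136 in controls and did not pass (log2 difference 0.40, adjusted p = 0.209). Psmg2 and Pomp overlapped, with log2 differences of 0.0046 and 0.34. Psmf1 missed the threshold without knockdown 2 (adjusted p = 0.056), and Psmg3 without control 1 (0.186) and knockdown 1 (0.0933). In all 3 of 8 activator and assembly genes rose (37.5%, against 15.9% of all genes) and 1 fell (12.5%, against 21.6%).

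The largest rises that held in every setting were in E2 enzymes, with 3 genes near 2.9-fold. Ube2e1 had 125 and 128 normalised counts in knockdowns and 37.4 and 49.5 in controls (2.89-fold, log2 difference 1.53, SE 0.30, adjusted p = 0.000468). Ube2d2a had 481 and 539 in knockdowns and 160 and 195 in controls (2.87-fold, adjusted p = 3.65e-05). Ube2d3 had 154 and 198 in knockdowns and 55.1 and 66.6 in controls (2.85-fold, adjusted p = 0.000279). In each of the 3 the lower knockdown library is more than 2 times the higher control. The UBE2D and UBE2E enzymes are closely related and pass ubiquitin to many E3 ligases. Exons of Nkiras1 overlap the end of Ube2e1 on the opposite strand.

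Close relatives of these enzymes did not rise. Ube2d1 had 58.1 and 56.4 in knockdowns and 109 and 86 in controls (log2 difference −0.75, 95% interval −1.36 to −0.14, adjusted p = 0.0506). Ube2e3 had 237 and 272 in knockdowns and 315 and 366 in controls (−0.42, adjusted p = 0.153). Both have the knockdown libraries below the controls. Because ratios within a library do not depend on its scaling, such pairs were also compared as log2 ratios, for 5 pairs picked after the values were seen. Ube2d3 over Ube2d1 was 1.39 and 1.79 in knockdowns and −0.97 and −0.37 in controls. Ube2e1 over Ube2e3 was −0.91 and −1.08 in knockdowns and −3.04 and −2.86 in controls.

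The same was done for the scaffolds, the activators and a pair of COP9 subunits. Psmd1 over Psmd2 was 0.087 and −0.31 in knockdowns and −1.35 and −1.71 in controls. Psme3 over Psme1 was −2.42 and −1.47 in knockdowns and −4.46 and −3.56 in controls. Cops3 over Cops6 was −1.88 in both knockdowns and −3.76 and −3.41 in controls. The groups do not overlap in any of the 5 pairs, with differences of 1.42 to 2.26 between group means. The exact two-sided permutation p is 0.333 for each, the smallest that 2 libraries against 2 allow, and the pairs were picked for their contrast.

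**Figure D4:**
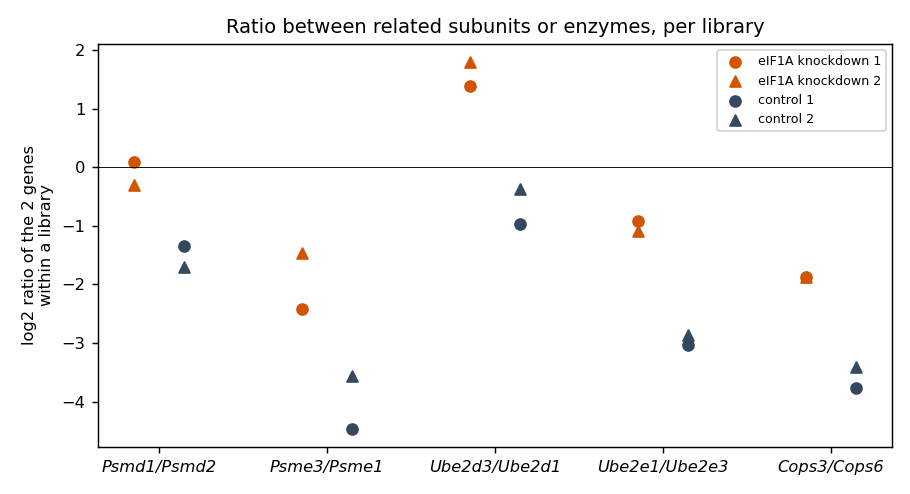
Log2 ratio of the normalised counts of 2 related genes within each library, for 5 pairs, with knockdown libraries in orange at the left and control libraries in dark blue at the right of each pair. Every knockdown ratio lies above both control ratios of its pair. The smallest difference between group means is 1.42, for Psmd1 over Psmd2.

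Other E1 and E2 genes went both ways. Of the 22 tested 5 rose (22.7%, against 15.9% of all genes) and 2 fell (9.09%, against 21.6%), with a median of 0.26. Ube2a, a homolog of yeast Rad6 that modifies chromatin and damaged DNA clamps, had 128 and 126 in knockdowns and 60 and 86 in controls (1.75-fold higher, adjusted p = 0.0306). Its paralog Ube2b had 67 and 49.6 in knockdowns and 26.6 and 48.7 in controls and did not pass (log2 difference 0.66, adjusted p = 0.167). The falls were in Ube2o, a large enzyme that acts as E2 and E3 at once, with 231 and 191 in knockdowns and 368 and 304 in controls (1.59-fold lower, adjusted p = 0.0292), and in Ube2l3. Ube2l3, which serves HECT and RBR ligases, had 322 and 365 in knockdowns and 551 and 480 in controls (log2 difference −0.58, adjusted p = 0.0406). At equal totals the limma adjusted p was 0.3 for Ube2o and 0.429 for Ube2l3. Under quantile normalisation it was 0.125 and 0.259. Without control 1, knockdown 1 or knockdown 2 the adjusted p was 0.182, 0.127 and 0.121 for Ube2a and 0.144, 0.23 and 0.0911 for Ube2l3. That of Ube2o was 0.128 without control 1 and 0.231 without knockdown 2.

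Uba1, the main ubiquitin E1, had 2039 and 1955 normalised counts in knockdowns and 3009 and 2595 in controls. The groups do not overlap, and the log2 difference of −0.48 had a 95% interval of −0.93 to −0.036 and an adjusted p of 0.0831. Its transcript end matches 18 other genes at 95% identity or more. For SUMO the E1 genes Sae1 and Uba2 had log2 differences of −0.32 and 0.20. Ube2m, the E2 of NEDD8, had 2821 and 2464 in knockdowns and 2201 and 2129 in controls (0.28, 95% interval −0.16 to 0.73). Ube2l6, the E2 of the interferon-induced modifier ISG15, had 936 and 780 in knockdowns and 771 and 384 in controls (0.65, adjusted p = 0.0613). Uba3, the catalytic subunit of the NEDD8 E1, had 6.46 and 12.9 in knockdowns and 0.984 and 10.6 in controls. Its summed reads had a ratio of 1.60 with an interval of 0.81 to 3.30.

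**Figure D5:**
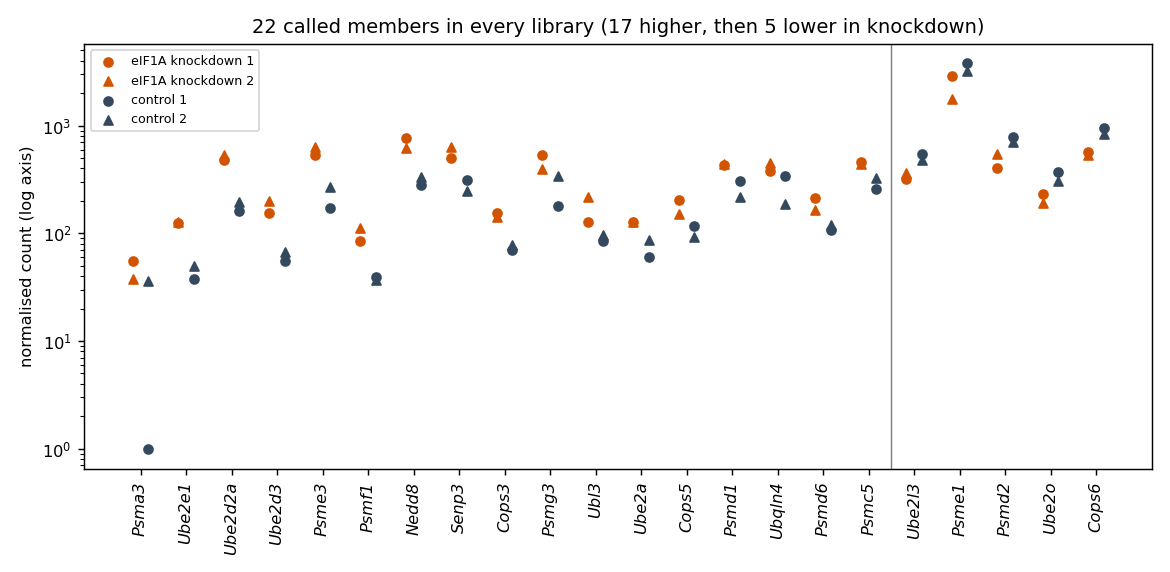
Normalised counts on a log axis of 22 members that passed the threshold, ordered by log2 difference, with knockdown libraries 1 and 2 in orange at the left and control libraries in dark blue at the right of each gene. The 17 genes left of the grey line were higher and the 5 right of it lower in knockdown libraries, and control 1 of Psma3 stands alone at 0.984.

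Ubiquitin-like modifiers and their proteases had 3 rises among 6 tested genes (50%, against 15.9% of all genes) and no fall (against 21.6%). Their median was 0.61. None was lower at an unadjusted p under 0.05 in limma, edgeR or DESeq2. Nedd8, whose product activates cullin ligases, had 771 and 615 normalised counts in knockdowns and 282 and 331 in controls (2.25-fold higher, SE 0.22 on the log2 scale, adjusted p = 0.00038). Senp3, a nucleolar protease that removes SUMO from ribosome assembly factors, had 498 and 635 in knockdowns and 312 and 245 in controls (2.03-fold higher, adjusted p = 0.00163). Ubl3, a membrane-anchored ubiquitin-like protein, had 128 and 216 in knockdowns and 84.6 and 97.4 in controls (1.82-fold higher, adjusted p = 0.0224, and 0.391 without knockdown 2). In these 3 genes every knockdown library exceeds both controls. Sumo3 had 600 and 543 in knockdowns and 388 and 576 in controls, which overlap (log2 difference 0.27, adjusted p = 0.381). Senp6, a protease for SUMO chains, varied more within groups, at 9.69 and 31.2 in knockdowns and 12.8 and 18.7 in controls.

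Genes of p97 and of the shuttle proteins that bring substrates to the proteasome gave 1 rise (11.1%) and no fall among 9. Over all genes 15.9% rose and 21.6% fell. At an unadjusted p under 0.05, 1 of the 9 was lower in limma and 0 in edgeR and DESeq2. Their median was 0.13, and −0.012 when control 1 was left out. Vcp, which encodes the p97 ATPase, had 692 and 679 in knockdowns and 927 and 780 in controls (log2 difference −0.31, 95% interval −0.75 to 0.13). Its cofactors Nploc4 and Ufd1l had differences of 0.17 and 0.13. Ubqln4, an ubiquilin shuttle, had 379 and 451 in knockdowns and 338 and 187 in controls (1.64-fold higher, adjusted p = 0.0368). That call was lost without control 2 (adjusted p = 0.4) and knockdown 2 (0.174). Its relatives Ubqln1 (0.76, adjusted p = 0.0699) and Ubqln2 (−0.31) did not pass. Ubxn1, the p97 adaptor of highest mean, had 2905 and 2104 in knockdowns and 2846 and 3131 in controls, and Ubxn6 had 1435 and 1314 in knockdowns and 1817 and 1938 in controls (−0.45, adjusted p = 0.0987). Ubxn4 had 19.4 and 13.6 in knockdowns and 3.94 and 13 in controls (1.05, adjusted p = 0.194). The transcript ends of Ubxn4 and Ubxn6 match 85 and 7 other genes.

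COP9 signalosome subunits did not move as a block. Of 6 tested genes 2 rose (33.3%, against 15.9% of all genes) and 1 fell (16.7%, against 21.6%). The groups do not overlap in any of the 6, with 4 higher and 2 lower. Over all genes 32.4% lay higher and 35.5% lower without overlap, so this is common here. Cops5, the catalytic subunit that cuts NEDD8 from cullins, had 205 and 152 in knockdowns and 116 and 92.5 in controls (1.70-fold higher, adjusted p = 0.0291). Cops3 had 154 and 143 in knockdowns and 69.9 and 77.9 in controls (2.00-fold higher, adjusted p = 0.00592). Cops6, which pairs with Cops5 in the enzyme, had 569 and 531 in knockdowns and 959 and 840 in controls (1.63-fold lower, adjusted p = 0.0122). The Cops6 fall did not pass at equal totals (log2 difference −0.35, limma adjusted p = 0.188) or under quantile normalisation (0.167). Cops4 had 322 and 303 in knockdowns and 452 and 388 in controls (log2 difference −0.42, adjusted p = 0.14). Cops7a had 1418 and 1168 in knockdowns and 775 and 1015 in controls (0.54, adjusted p = 0.0617), and Cops8 had 470 and 491 in knockdowns and 357 and 334 in controls (0.47, adjusted p = 0.0884).

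Leaving out a library ended each of the 3 COP9 calls in some case. The adjusted p of Cops3 was 0.0575 without knockdown 1. That of Cops5 was 0.1 without control 2 and 0.284 without knockdown 1, and that of Cops6 was 0.0526 without control 1 and 0.0867 without knockdown 2. The ends of Cops6 and Cops3 are overlapped on the opposite strand by exons of Mcm7 and of the predicted gene Gm16062, and the sources used here do not say whether counting used strand.

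The 6 members under the filter had too few reads for a comparison. Cops2, Senp7, Ube2g1, Ube2n, Ube2v1 and Ubxn7 had mean normalised counts of 1.84 to 4.58, and the 95% intervals of all their read ratios included 1 fold. Ube2n, an E2 that builds signalling chains, had 3 reads over the knockdowns and 9 over the controls, a ratio of 0.276 with an interval of 0.0481 to 1.11. The remaining tested members (Ube2h, Ube2j1, Ube2s, Ube2t and Ube2z) lay between −0.61 and 0.33 and did not pass.

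Of 52 further genes of these pathways, drawn up from general knowledge with earlier results of these data known, 30 were present and 25 were tested. Among these 5 rose (20%, against 15.9% of all genes) and 3 fell (12%, against 21.6%), with a median of 0.15. Zfand2a, which encodes a stress-induced proteasome partner, had 132 and 166 in knockdowns and 43.3 and 50.3 in controls (3.13-fold higher, adjusted p = 0.00018). Rps27a, which encodes a fusion of ubiquitin to a ribosomal protein, had 288 and 406 in knockdowns and 98.4 and 194 in controls (2.46-fold higher, adjusted p = 0.00158). Pias3, a SUMO ligase, had 170 and 167 in knockdowns and 408 and 285 in controls (2.02-fold lower, adjusted p = 0.00274). Isg15, the interferon-induced modifier, had 1166 and 654 in knockdowns and 283 and 575 in controls (2.16-fold higher, adjusted p = 0.00619).

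Other called genes of that list were Adrm1, a ubiquitin receptor of the cap (1.57-fold higher), AI314180 (2.77-fold higher), a proteasome adaptor that RefSeq lists as Ecpas, and Cand2, a cullin exchange factor (1.88-fold lower). AI314180 had 37.1 and 40.1 in knockdowns and 29.5 and 5.68 in controls, and its log2 difference of 1.47 became 0.37 without control 2 (adjusted p = 0.547) and 2.57 without control 1. Without knockdowns 1 and 2 its adjusted p was 0.0659 and 0.0915. Adrm1 lost its call without each library in turn (adjusted p of 0.0521 to 0.238). Isg15 lost it without control 1 (0.064) and knockdown 1 (0.0704), and Cand2 without control 1 (0.0858) and knockdown 2 (0.0783). Nfe2l1, which encodes NRF1, a transcription factor of proteasome genes, had 461 and 566 in knockdowns and 377 and 429 in controls and did not pass (log2 difference 0.34, adjusted p = 0.232). Nfe2l2 had 68.6 and 61.8 in knockdowns and 54.1 and 83.6 in controls, which overlap.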

How the data were processed

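Bulk MARS-seq, which sequences 3′ ends of polyadenylated RNA, was run on 2 knockdown and 2 control libraries. The authors deposited a signal per gene, named normalised counts. Tools in the submitters' processing notes were STAR, HTSeq, DESeq2, cutadapt 1.8.3 and bcl2fastq 2.17.1.14, with build mm10. The sources used here do not give the scaling factors, the use of strand or molecular identifiers, or the choice of genes. All values were whole multiples of 1 step per library (100% within 0.01 read), so reads could be recovered. No gene had a value of 0. Replicates differed by more than sampling noise (chi-square over degrees of freedom 13.7 in knockdowns and 16.5 in controls).

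Genes with a mean of at least 5 were tested on log2(value + 1) by limma 3.58.1 with its trend option (R 4.3.3), over all 4 libraries without a block, and p-values were adjusted over 4605 genes. Its script was tested on simulated data. edgeR 4.0.16 and DESeq2 1.42.0 were run on the recovered reads, and edgeR called 807 genes higher and 909 lower. Gene positions came from GENCODE M21 (all 84 members, 1 by an older symbol). Exons of other genes were searched in the last 1000 bases of each gene. Near copies were sought in the last 300 bases of a transcript, at 95% identity over at least 50 bases, and 12 members had some. The naming rule took all called genes, the highest mean and smallest p per role, activators, immunoproteasome subunits, Uba1, Vcp, Nedd8 and Ube2m. A few genes are counted but not reported here by name. Members, lists and this rule were chosen with earlier results of these data known, and the other genes named were added after their values were seen.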

Additional observations from a re-analysis of the deposited data

How the results depend on the processing

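With 2 libraries per group and no batch in the labels, neither the source of differences between replicates nor a batch can be separated from the groups. Of 23 called members 6 kept their call under all 15 settings in which single genes were scored, a share not computed over all genes. None of the named genes that were called changed direction. Members called higher numbered 36 at equal totals and 9 in limma without a trend. Members called lower numbered 3 under TMM scaling, 0 at equal totals and 1 under quantile normalisation. They numbered 0 without a trend, 3 in edgeR and 1 in DESeq2. At an unadjusted p under 0.05, limma had 0 members lower at equal totals, 5 without a trend and 3 without control 1, where the adjusted count was 0. The cause of these differences was not tested. All genes called higher numbered 1299 at equal totals and 438 to 758 with a library left out. All genes called lower numbered 603 at equal totals and 655 without a trend. With the replicate number as a block 18 members were higher and 4 lower (641 and 918 of all genes), and same-numbered libraries deviated with a correlation of −0.129 over 4605 genes. The numbers are only labels, and with crossed numbers as a block, added after seeing the data, 22 members were higher and 7 lower (891 and 1154 of all genes).

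Medians moved by more than the spread between replicates as follows. At equal totals they were 0.64 for all members, 0.74 for the 19S cap, 0.72 for activators and assembly factors, 0.60 for E1 and E2 enzymes, 0.95 for ubiquitin-like and SUMO genes, 0.48 for p97 and shuttle factors and 0.86 for COP9. Under quantile normalisation they were 0.46 for all members, 0.47 for the 20S core, 0.56 for the cap, 0.099 for p97 and 0.78 for COP9. With a minimum mean of 20 they were 0.86 for ubiquitin-like genes and −0.072 for p97, which was also −0.072 with no filter, 0.19 under TMM scaling, 0.18 in edgeR and 0.16 in DESeq2. With a library left out the medians ran from 0.29 to 0.58 for activators, 0.41 to 0.99 for ubiquitin-like genes and −0.012 to 0.20 for p97. Pseudocounts of 0.5 and 5 moved none of these medians beyond that spread. Depth limited the 6 members under the filter, which had 2 to 14 reads over both knockdowns.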
